A study of Oryctolagus cuniculus with 6 samples.

Results

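The miR-194 and miR-215 hairpins lie next to each other in the genome and are known as a gene cluster. Its rows in the deposited miRNA table are those named miR-194, miR-215 or miR-192 once the species prefix and the arm are removed. They number 4 of 467, namely ocu-miR-194-5p, ocu-miR-194-3p, ocu-miR-215-5p and ocu-miR-215-3p. For miR-192 there were 0 rows, so it could not be analysed here. The small RNA libraries came from hypertrophic scars, the raised scars that form when full-thickness wounds of the rabbit ear heal, in female New Zealand White rabbits. The 3 saline libraries are from wounds given saline, and the 3 ADSC-Exos libraries from wounds given exosomes at a dose of 100 µg per 2 ml. Exosomes are small vesicles that cells secrete, here adipose-derived stem cells. The series' design text has the wounds treated over the first 3 days, whereas the sample labels speak of 21 days. The tissue was taken at day 21, and the animals of both groups had the same surgery, antibiotics and analgesics. Nothing in the sources states the species of the stem cells, the age of the rabbits or that each library is a separate rabbit, so a p-value speaks only of the spread between these samples.

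A miRNA hairpin is cut by Dicer into a duplex whose 5p and 3p arms can each be loaded into Argonaute, where the seed at the start of the loaded arm selects mRNAs for repression. miR-194 is usually studied through its 5p arm, and the 3p arm is commonly the scarcer passenger strand. miR-215-5p shares its seed with miR-192-5p. The cluster is best known from gut and liver epithelium and as a target of p53. In rabbit assembly mOryCun1.1, as RefSeq annotates it, MIR215 directly precedes MIR194 and the protein-coding gene RAB3GAP2 follows. Mature sequences were not used here.

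Levels are in CPM, the usual unit in which a miRNA's reads are given as a proportion of its own library. Low values move in steps of 1 read, and these steps place the library totals at 2873899 to 3911924 reads in saline and at 2260645 (ADSC-Exos 1) to 5102405 reads (ADSC-Exos 3) after treatment. The listed values of a library sum to 999998 to 1000007 CPM. Its total therefore counts reads of the listed miRNAs and not all reads sequenced. A step was 0.196 to 0.442 CPM, so a count of 0 allows a level of up to 3 reads, which stood at 0.588 to 1.33 CPM. Limits and intervals on reads cover counting error only.

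Before the levels are compared, the steps bear on how far the cluster's own values can be read. Of 2382 values above 0 in the table, 2378 were whole reads within 0.05 CPM, and all 4 others belonged to this cluster. The first was that of miR-194-3p in saline 2, at 1.16 CPM or 3.33 reads, and the other 3 were values of miR-215-5p. The latter came to 9.77 reads in saline 2, to 2.71 in ADSC-Exos 1 and to 29.6 in ADSC-Exos 2. The value 1.16 was also the only 1 of 2802 given to 2 decimals. The same tolerance takes in 22.6% to 51.0% of arbitrary values, depending on the library, so a value on a step is weak evidence of a read count.

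The whole reads of all rows were then summed and set against the total that the steps gave. The sum exceeded the total by 10 reads in saline 1, 14 in saline 3, 3 in ADSC-Exos 1, 29 in ADSC-Exos 2 and 16 in ADSC-Exos 3. miR-215-5p, rounded to whole reads, was at 10, 14, 3, 30 and 16 reads in these libraries, and it was the only 1 of 467 rows to match the surplus within 1 read in all 5. Without the miR-215-5p row the sum met the total exactly in 4 libraries and fell 1 read short in ADSC-Exos 2. In saline 2 it fell 11 reads short without that row, where miR-194-3p counted as 3 reads. A miR-194-3p value of 14 reads, or 4.87 CPM, would complete the saline 2 total. How these values came about was not tested. The miR-215-5p values are therefore given with this limit, and the main values of miR-194-3p are also given with saline 2 at 4.87 CPM, an alternative chosen after seeing the data.

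**Figure D1:**
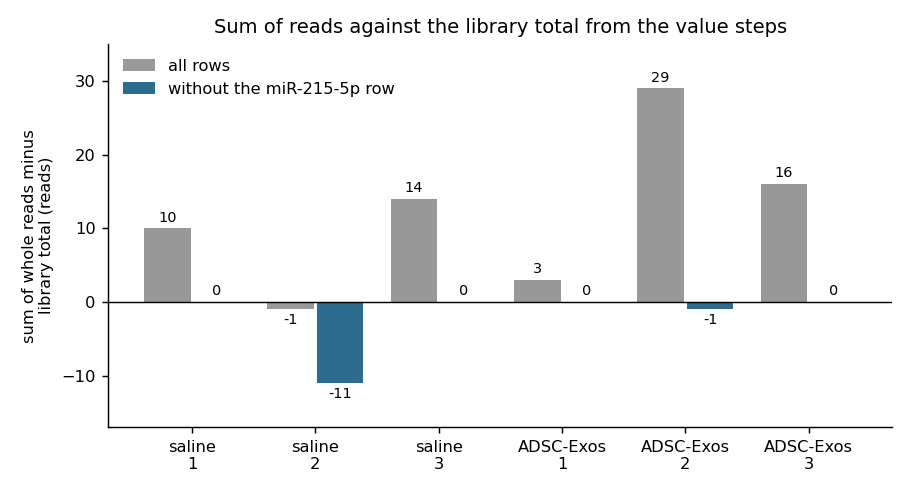
Sum of whole reads minus the library total found from the value steps, in reads, for each library, with all 467 rows (grey) and without the miR-215-5p row (blue). Without that row the bars are at 0 in 4 libraries, at -1 in ADSC-Exos 2 and at -11 in saline 2.

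miR-194-5p, the arm for which most targets of miR-194 have been described, was present at moderate levels in every scar. Saline 1, 2 and 3 held 24.6, 19.1 and 25.3 CPM of it, from 80, 55 and 99 reads. ADSC-Exos 1, 2 and 3 held 20.8, 47.8 and 44.9 CPM, from 47, 177 and 229 reads. ADSC-Exos 2 and 3 lay above every saline library, and ADSC-Exos 1 lay inside the saline range, so the groups overlapped. By level it took places 173 to 182 of the 467 rows in the saline libraries and places 183, 137 and 131 in ADSC-Exos 1, 2 and 3. The saline mean was 23.0 ± 3.40 CPM and the ADSC-Exos mean 37.8 ± 14.8 CPM (± SD of 3 libraries).

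miR-194-3p, the opposite arm, differed far more between libraries. Saline 1, 2 and 3 held 4.6, 1.16 and 2.3 CPM of it, whereas ADSC-Exos 1, 2 and 3 held 3.5, 93.7 and 103.1 CPM. The saline mean was 2.69 ± 1.75 CPM and the ADSC-Exos mean 66.8 ± 55.0 CPM (± SD of 3 libraries). ADSC-Exos 2 and 3 hold 347 and 526 reads, against 8 reads in ADSC-Exos 1 and at most 15 in a saline library. Its place by level was 263 or lower in saline and 284 in ADSC-Exos 1, against 115 and 110 in ADSC-Exos 2 and 3, and it met a mean of 10 CPM only through these last libraries. The spread over the 6 libraries, from lowest to highest log2(CPM + 1), was 5.59, the second widest of the 224 miRNAs that averaged 10 CPM or more, after the muscle miRNA miR-206-3p at 6.06, and the median spread was 1.21. Its spread was 4.98 with saline 2 at 4.87 CPM, again the second widest. miR-194-5p had a spread of 1.28, place 100 of 224.

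**Figure D2:**
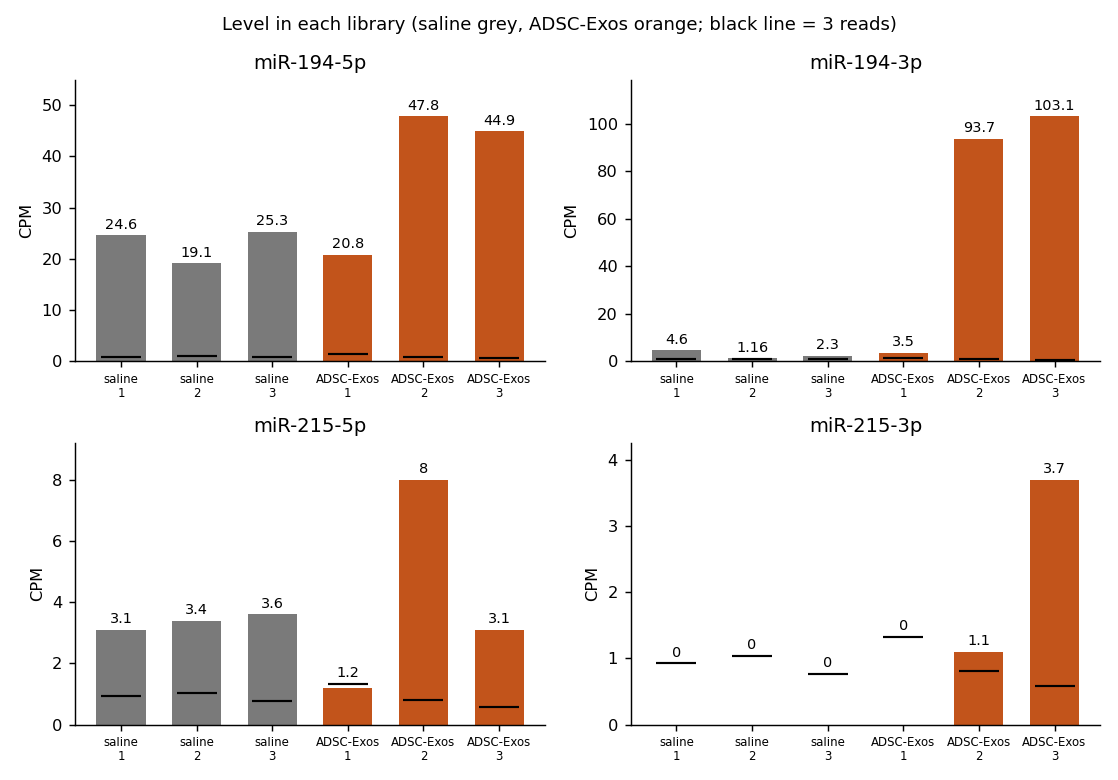
CPM of each cluster member in each library, with the saline libraries in grey and the ADSC-Exos libraries in orange; bars start at 0, printed values are CPM, and the black line marks 3 reads. Both miR-194 arms are highest in ADSC-Exos 2 and 3, and ADSC-Exos 1 stands at 20.8 CPM (5p) and 3.5 CPM (3p), beside the saline libraries.

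The series title names exosomal miR-194, and the comparison asks whether scars treated with the exosomes held more of it at day 21. Neither arm passed. In limma on log2(CPM + 1), adjusted over the 224 miRNAs, the log2 fold change of miR-194-3p was 3.37 ± 1.09 (SE; 95% interval 0.91 to 5.83; adjusted p = 0.861). Since it met the mean of 10 CPM only through ADSC-Exos 2 and 3, the fit over all 467 rows stands beside it, in which the interval was 0.80 to 5.95 and the limma adjusted p 0.995. Its unadjusted p was 0.0126, at a threshold that 8 of 224 miRNAs (3.57%) passed, whereas 0 (0.0%) passed an adjusted p of 0.05. limma-voom on the reads gave the same counts of 0 and 8. For miR-194-5p it was 0.62 ± 0.41 (SE; 95% interval -0.31 to 1.54; limma adjusted p = 0.996), beside a median of -0.08 over all tested miRNAs. Both arms overlapped between groups, as did all but 11 of the 224 (4.91% did not overlap). By an exact permutation test, two-sided, p was 0.2 for the 3p arm and 0.3 for the 5p arm, and a design of this size cannot go below 0.1. In bulk tissue, a higher level in the cells and more cells of a type cannot be told apart.

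**Figure D3:**
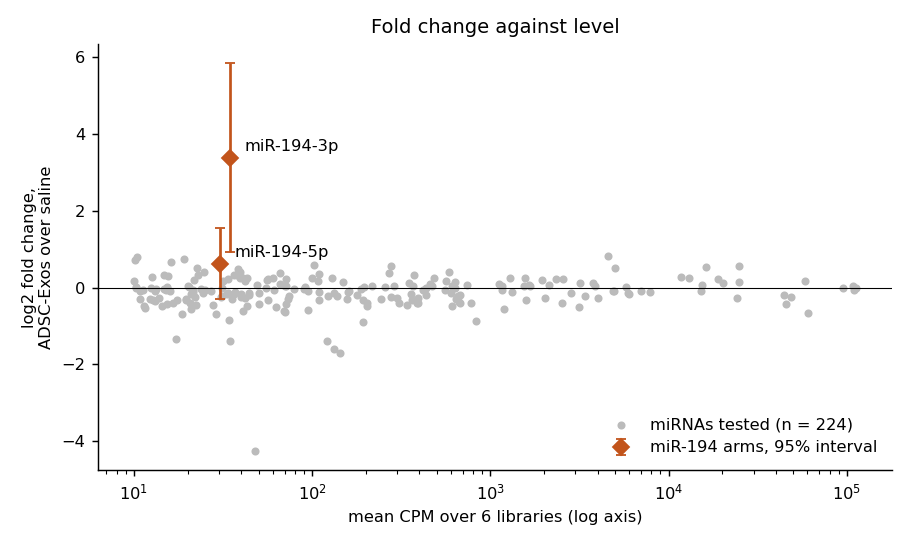
log2 fold change of ADSC-Exos over saline against the mean CPM over 6 libraries (log axis) for 224 miRNAs (grey points), with the miR-194 arms as orange diamonds and their 95% intervals. miR-194-3p lies at 3.37 with an interval of 0.91 to 5.83, and miR-194-5p at 0.62 with an interval that takes in 0.

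The call of miR-194-3p turned on ADSC-Exos 1. Leaving that library out gave a log2 fold change of 4.86 ± 0.50 (SE; limma adjusted p = 0.000306), and 4 of 223 miRNAs (1.79%) then passed, against 0 with all libraries. ADSC-Exos 1 is the only treated library where miR-194-3p was low (3.5 CPM). The p-values without it depend on that choice and are only a description. In this fit 28 of 223 miRNAs had an unadjusted p under 0.05 in limma, against 8 of 224 with all libraries. The fit without ADSC-Exos 1 over all 467 rows, with no filter on level, gave a limma adjusted p of 0.0395, and miR-194-3p was then the 1 row that passed (0.214%). The other 3 miRNAs of the filtered fit, miR-144-3p, miR-451-5p and miR-486-5p, are listed red cell miRNAs and fell. With saline 2 at 4.87 CPM the log2 fold change over all libraries was 2.89 in place of 3.37 (adjusted p = 0.887, limma), and the saline mean moved from 2.69 to 3.92 CPM. With saline 2 at 4.87 CPM and without ADSC-Exos 1 it was 4.38 (adjusted p = 0.000260, limma), and again the same 4 of 223 miRNAs (1.79%) passed. Leaving out ADSC-Exos 2 instead gave 2.66 (limma adjusted p = 0.996), and leaving out ADSC-Exos 3 gave 2.59 (limma adjusted p = 0.995). The completed saline 2 value made these 2.18 and 2.11. For miR-194-5p the value without ADSC-Exos 1 was 0.99 (limma adjusted p = 0.292). ADSC-Exos 1 has the lowest total of listed miRNA reads of the 6 libraries, at 2260645, and the part of depth in this was not tested.

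**Figure D4:**
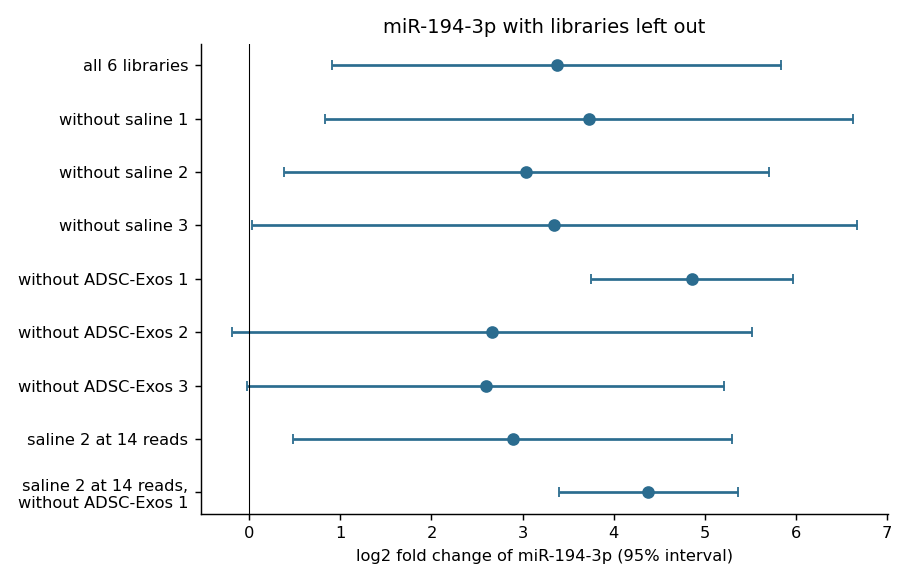
log2 fold change of miR-194-3p with its 95% interval from limma, over all 6 libraries, with each library left out, and with saline 2 set to the 14 reads that complete its total. The interval is narrowest where ADSC-Exos 1 is left out and takes in 0 without ADSC-Exos 2 and without ADSC-Exos 3.

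The balance of the arms does not depend on how a library is scaled. The 3p arm took 15.8% of the miR-194 reads in saline 1 (95% Wilson interval 9.81% to 24.4%), 5.17% in saline 2 (1.77% to 14.1%) and 8.33% in saline 3 (4.45% to 15.1%). In ADSC-Exos 1 its share was 14.5% (7.56% to 26.2%). In ADSC-Exos 2 and 3 it was 66.2% (62.1% to 70.1%) and 69.7% (66.3% to 72.8%). The 5p arm was thus the more abundant in all saline libraries and ADSC-Exos 1, and the 3p arm in ADSC-Exos 2 and 3. With 14 reads in saline 2 its share there would be 20.3% (12.5% to 31.2%), the highest of the saline libraries instead of the lowest.

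The log2 ratio of 3p to 5p, with 1 CPM added to each, was higher by 2.76 in ADSC-Exos, and the exact two-sided permutation p was 0.2. With saline 2 at 4.87 CPM the difference was 2.27 and the exact permutation p was 0.3. Among 57 hairpins with both arms tested, the gap between the fold changes of the arms was widest for miR-194 (2.76), followed by let-7b (1.00) and miR-205 (0.92), against a median gap of 0.24. miR-194 is among the 57 only because its 3p arm met the mean of 10 CPM through ADSC-Exos 2 and 3, so its place is a description. Over all 195 hairpins with both arms in the table, with no filter on level, its gap was also the widest, followed by miR-486 (1.27), against a median of 0.29. miR-486-3p was at 0.3 CPM in saline 3 and at 0 elsewhere, so that gap comes from the 5p arm. The cluster's own miR-215 took place 4, at 1.11. Arms with so few reads have understated fold changes on this scale, which limits this ranking. Relative to each hairpin's saline mean, the miR-194 log2 ratio stood at 3.76 in ADSC-Exos 2 and 3.98 in ADSC-Exos 3, the highest of the 57 in each. These were 3.28 and 3.50 with saline 2 at 4.87 CPM, still the highest. The 56 other hairpins reached up to 1.08 in ADSC-Exos 2 (miR-872) and 3.28 in ADSC-Exos 3 (miR-125b). In ADSC-Exos 1 miR-194 stood at 0.53, place 18 of 57, and in saline 2 at -0.42, the lowest of 57, a place that rests on the value of 1.16 CPM. With 4.87 CPM there, saline 2 stood at 0.55, the highest of 57, and ADSC-Exos 1 at 0.045, place 37.

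**Figure D5:**
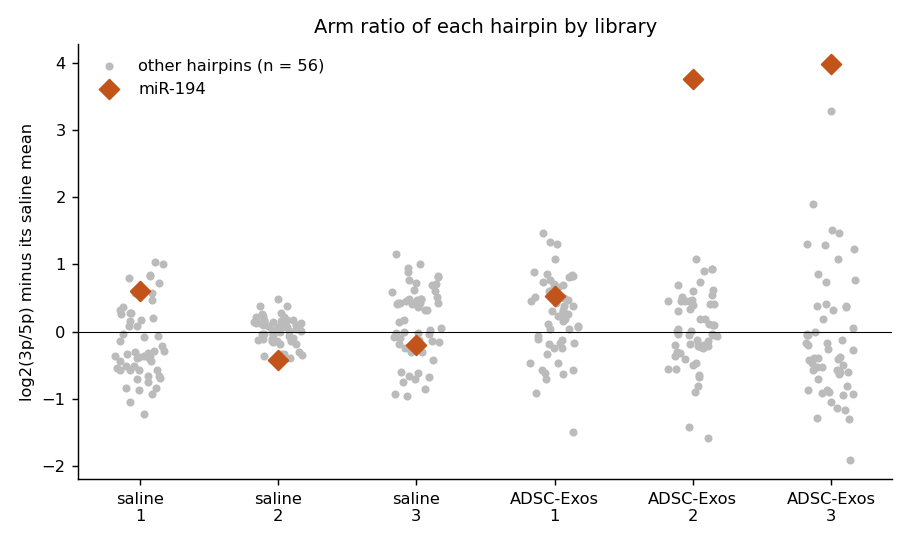
log2 ratio of the 3p to the 5p arm minus the same hairpin's mean over the saline libraries, for 57 hairpins in each library, with miR-194 as orange diamonds and the 56 others as grey points. miR-194 is the highest point in ADSC-Exos 2 (3.76) and ADSC-Exos 3 (3.98) and lies among the others in ADSC-Exos 1 (0.53).

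miR-215, the neighbour of miR-194, was far scarcer, and both of its rows were under the mean of 10 CPM, so they were fitted over all 467 rows instead. miR-215-5p, which carries the seed of the miR-192 family, is listed with 3.1, 3.4 and 3.6 CPM for saline 1, 2 and 3 and with 1.2, 8.0 and 3.1 CPM for ADSC-Exos 1, 2 and 3. ADSC-Exos 2 was the highest library and ADSC-Exos 1 the lowest, with the saline values between them. Its fitted log2 difference was -0.011 ± 0.53 (SE; 95% interval -1.23 to 1.21; limma adjusted p = 1.0), and its sign turned under several alternatives. The exact permutation p was 1.0. These values carry the limit given above, that the row's reads equal the surplus over the library totals within 1 read in 5 libraries.

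miR-215-3p, usually the scarcer arm of its hairpin, is listed at 0 in all saline libraries and in ADSC-Exos 1. ADSC-Exos 2 held 4 reads of it (1.1 CPM) and ADSC-Exos 3 held 19 (3.7 CPM). The limit that a count of 0 allows was 0.924, 1.04 and 0.767 CPM in saline 1, 2 and 3 and 1.33 CPM in ADSC-Exos 1. The 1.1 CPM of ADSC-Exos 2 thus could not be told from ADSC-Exos 1 at this depth. Its 4 reads carry counting error of their own, so a value over the saline limits does not set ADSC-Exos 2 apart from saline either. The fitted log2 difference of 1.10 ± 0.49 (SE; limma adjusted p = 0.995) depends on the added 1 CPM and is no bound. The exact permutation p was 0.4. In that fit 0 of 467 rows (0.0%) passed an adjusted p of 0.05 and 16 (3.43%) an unadjusted p of 0.05. limma-voom on the reads gave 0 and 19. The 2 libraries with reads of miR-215-3p are those with the high miR-194-3p values.

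Summed over the 4 rows, the cluster came to 32.3, 23.7 and 31.2 CPM in saline 1, 2 and 3 and to 25.5, 150.6 and 154.8 CPM in ADSC-Exos 1, 2 and 3. In order of their mean over all 6 libraries, the members were miR-194-3p at 34.7 CPM, miR-194-5p at 30.4 CPM, miR-215-5p at 3.73 CPM and miR-215-3p at 0.80 CPM. The first place of miR-194-3p comes from ADSC-Exos 2 and 3. In saline the order was miR-194-5p, miR-215-5p, miR-194-3p and miR-215-3p, and the levels of miR-215-5p (3.37 ± 0.25 CPM) and miR-194-3p (2.69 ± 1.75 CPM; ± SD of 3 libraries) overlapped there. With saline 2 at 4.87 CPM the saline mean of miR-194-3p was 3.92 CPM, and these neighbours changed places.

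Other miRNAs of the settings in which the cluster is known were counted from lists. Over all 224 tested miRNAs 0 passed in limma and 8 (3.57%) had an unadjusted p under 0.05, with a median log2 fold change of -0.08. Of 9 p53-responsive miRNA names, 7 were found, with 14 rows of which 8 were tested. Of these 3 were higher and 5 lower, 0 passed in limma, 0 had an unadjusted p under 0.05, and the median log2 fold change was -0.15. The 3 most abundant rows, with log2 fold changes, were miR-143-3p (-0.43 ± 0.53, SE), miR-145-5p (-0.11 ± 0.38) and miR-15a-5p (0.036 ± 0.28). miR-34a-5p, the best known p53 target among miRNAs, measured 107.2, 99.5 and 149.0 CPM in saline 1, 2 and 3 and 108.8, 152.2 and 158.7 CPM in ADSC-Exos 1, 2 and 3. Of 7 liver, gut and pancreas names, 6 were found, with 8 rows of which 3 were tested, 1 higher and 2 lower, 0 passing and with a median of -0.31. miR-122-5p, the main miRNA of hepatocytes, ran from 2.8 CPM in saline 1 to 38.1 CPM in saline 3, and ADSC-Exos 1, 2 and 3 held 10.2, 10.3 and 5.7 CPM. miR-375-3p, of endocrine and gut epithelial cells, measured 23.7, 13.9 and 5.9 CPM in the saline libraries and 10.2, 8.6 and 11.4 CPM in the treated ones. miR-148a-3p, abundant in many tissues, had a log2 fold change of 0.16 ± 0.26 (SE).

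ADSC-Exos 1 also differed from ADSC-Exos 2 and 3 in markers of cartilage and red cells and in some of skeletal muscle. The 4 rows of the cartilage miRNAs miR-140 and miR-455 summed to 2110 to 4652 CPM in saline and to 1461, 7602 and 6046 CPM in ADSC-Exos 1, 2 and 3. The 5 rows of the red cell miRNAs miR-451, miR-144 and miR-486 summed to 443 to 853 CPM in saline and to 472, 154 and 109 CPM in ADSC-Exos. Of these 4 were tested, all were lower over the 6 libraries with an unadjusted p under 0.05 in limma (log2 fold changes of -1.39 to -1.71), and 0 passed after adjustment. Over all tested miRNAs 8 of 224 (3.57%) had such an unadjusted p, these 4 among them, and 0 passed. The skeletal muscle rows, 5 of miR-1, miR-133 and miR-206, summed to 1453 to 2134 CPM in saline and to 609, 2375 and 1590 CPM in ADSC-Exos. This sum is mostly miR-1-3p, at 1283 to 2100 CPM in saline and 601, 2338 and 1555 CPM in ADSC-Exos 1, 2 and 3. miR-133a-3p measured 51.1, 23.3 and 25.6 CPM in saline and 5.8, 34.0 and 32.3 CPM in ADSC-Exos. ADSC-Exos 1 was the lowest of the 6 libraries in both of these rows. miR-206-3p, of skeletal muscle, did not set ADSC-Exos 1 apart, with 131.5, 145.8 and 4.6 CPM in saline and 1.8, 1.6 and 1.2 CPM in ADSC-Exos (log2 fold change -4.24 ± 1.10, SE; unadjusted p = 0.00368, limma adjusted p = 0.804). The 6 epithelial rows, from 3 of 7 listed names, summed to 8140 to 11335 CPM in saline and to 12050, 12297 and 7913 CPM in ADSC-Exos. Of these rows 4 were higher and 2 lower, and 0 passed. miR-141-3p measured 4136.5, 4006.8 and 4103.9 CPM in saline and 5644.8, 6820.3 and 5111.1 CPM in ADSC-Exos. miR-205-5p measured 5017.1, 3280.9 and 2331.1 CPM in saline and 3781.2, 3239.9 and 1083.0 CPM in ADSC-Exos. The part of these markers in the miR-194 values was not tested. The fibroblast miRNAs miR-199a and miR-214, 4 rows, summed to 117972 to 143972 CPM in saline and 113480 to 164725 CPM in ADSC-Exos. That sum is nearly all miR-199a, since miR-214-3p measured 7.6 to 42.2 CPM and miR-214-5p 21.7 to 76.4 CPM over the 6 libraries.

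The miRNAs with the pattern most like that of miR-194-3p over the 6 libraries, by Pearson's r of log2(CPM + 1), were miR-194-5p (r = 0.97), miR-30b-5p (0.85), miR-29a-3p (0.85), miR-184-3p (0.84) and miR-30e-5p (0.83). For miR-194-5p they were miR-194-3p (0.97), miR-29a-3p (0.89), miR-30b-5p (0.87), miR-30e-5p (0.86) and miR-23b-3p (0.86). These r describe 6 libraries that share their scaling and in which ADSC-Exos 2 and 3 stand high, and they were read as a ranking, with no test. Spearman's rho with miR-194-3p was 0.77 for miR-194-5p and 0.37 to 0.77 for the others. Both r and rho used the saline 2 value of 1.16 CPM for miR-194-3p and were not computed with 4.87 CPM. At 4.87 CPM saline 2 would be the highest saline library for miR-194-3p, whereas it was the lowest for miR-194-5p. The rho values therefore rest on the 1.16 CPM. The size of the swing was not shared. miR-29a-3p measured 11431, 12627 and 14124 CPM in the saline libraries and 12197, 28550 and 18200 CPM in ADSC-Exos 1, 2 and 3, a spread of 1.32 log2 units. miR-184-3p, a miRNA of corneal and skin epithelium, measured 5.2, 9.4 and 6.4 CPM in the saline libraries and 5.8, 18.4 and 15.5 CPM in the treated ones, a spread of 1.65, against 5.59 for miR-194-3p. Apart from miR-194-3p, each of these miRNAs had an adjusted p of 0.996 in limma.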

How the data were processed

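Small RNA libraries of 3 saline and 3 ADSC-Exos scars were analysed. The authors deposited CPM values of 467 miRNAs. Tools listed in the submitters' processing notes, without their roles, are DESeq2 1.30.1, HTSeq 2.0.3, STAR 2.7.6a, Trimmomatic 0.40 and FastQC 1.0.0. Genome build, miRNA annotation and any use of molecular identifiers: not given in the sources used here. PCR reads are not independent molecules. Library totals were the whole numbers under which the fewest values lay over 0.05 CPM from a multiple of 1 read, with the lowest value as 1 read; ADSC-Exos 3 had 2 tied totals, of which the lower was taken. limma 3.58.1 in R 4.3.3 was fitted to log2(CPM + 1) with trend, group as the only term and Benjamini-Hochberg adjustment, over rows averaging 10 CPM or more (miR-194) or all rows (miR-215); low miRNAs' fold changes are understated on this scale. The exact permutation test used 20 arrangements. The fit and the totals were tested on simulated data. The simulated fits used the same spread for all miRNAs, and the simulated totals held no value off the steps, unlike these data. Such tests check the code and not the results. Members, lists and tests were chosen with earlier results of these data known. Named were all cluster rows, the 5 miRNAs most like each miR-194 arm by Pearson's r and the 3 hairpins with the widest arm gap. From the p53 list and the liver, gut and pancreas list came the 3 most abundant members or those with an unadjusted limma p under 0.05. The rows named from the cell type lists were not all chosen by this rule. miR-34a-5p, miR-206-3p, miR-872, miR-125b, the miR-486 hairpin and the hairpins of the closing section were named after their values were seen. List membership went by exact name, ignoring arm and copy number, so miR-16a and miR-16b did not match miR-16. Alternatives were pseudocounts of 0.1 and 10, median-of-ratios and quantile scaling, other level filters, a replicate block, leaving out each library, limma-voom and a completed saline 2 value.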

Additional observations from a re-analysis of the deposited data

How the results depend on the processing

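With 3 libraries a group and few reads for miR-215 and for miR-194-3p in 4 libraries, depth limits the low values. miR-194-3p kept its direction in all 18 alternatives and passed in 3. All 3 left out ADSC-Exos 1, the treated library where miR-194-3p was low: as filtered, with no level filter (4.86) and with the completed saline 2 value (4.38). Leaving out a library moved its log2 fold change between 2.59 and 4.86, or 2.11 and 4.38 for the ADSC-Exos libraries with the completed value. It was 2.10 with a pseudocount of 10 and 3.75 with 0.1. The adjusted p of miR-194-3p in limma ran from 0.000260 to 0.998 over all alternatives. miR-194-5p ranged from 0.41 to 0.99 over leave-outs and miR-215-3p from 0.54 to 1.65 (0.20 with pseudocount 10, 2.94 with 0.1 and 2.84 in limma-voom), and neither passed in any alternative run; with a mean of at least 1 CPM miR-215-3p was not fitted. miR-215-5p turned sign under pseudocount 10 (0.049), median-of-ratios scaling (0.049) and limma-voom (0.051). It also did so when saline 3 (0.028), ADSC-Exos 1 (0.48) or ADSC-Exos 3 (0.029) was left out, and ranged from -0.54 to 0.48 over leave-outs. The completed saline 2 value concerns miR-194-3p only and did not move these values. The count of miRNAs past the threshold, 0, ran from 0 to 4 over leave-outs, with 1 without saline 3 (miR-206-3p), and without ADSC-Exos 1 was 4 with the completed value and 1 with no level filter. The arm ratio difference ranged from 2.14 to 3.87 over leave-outs. It was 1.61 with a pseudocount of 10 (exact permutation p = 0.1, the smallest possible) and 3.12 with 0.1 (exact permutation p = 0.2). With the replicate number as a block, miR-194-3p was at 3.37 (adjusted p = 0.532, limma) and 0 miRNAs passed. Deviations of same-numbered libraries correlated at -0.11, -0.02 and -0.13. These values come from 3 libraries a group and cannot decide whether the numbers pair the libraries. edgeR on the reads, planned if whole reads could be recovered, was not run.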

Other observations

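The arm that held more reads differed between libraries for 7 of the 57 hairpins with both arms tested, namely miR-194, miR-214, miR-181c, miR-505, miR-139, miR-106b and miR-425. In miR-505 the log2 ratio of 3p to 5p lay between -0.20 and 0.27 in 5 libraries and at 1.83 in ADSC-Exos 3. In miR-139 it was at 0.13 in ADSC-Exos 1 and at -3.07 in ADSC-Exos 3. The range over the 6 libraries was 4.40 for miR-194 and wider only for miR-125b, at 4.78, with a median of 1.53 over the 57 hairpins. Within saline the range of miR-194 was 1.03, place 24 of 57. With saline 2 at 4.87 CPM these ranges were 4.18, again the second widest, and 1.22, place 19.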
